A study of Mus musculus with 24 samples.

Results

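Serpins are a superfamily of proteins that share a fold with an exposed reactive centre loop, and the 61 mouse serpin genes of the deposited expression table were described in skin and wounds of 3 body sites. Members were all genes whose symbol begins with Serpin followed by a clade letter from a to i and a number, which selected 61 of 18368 genes. There were 24 members of clade A, 26 of clade B, 3 of clade E and 8 of the other clades (C, D, F, G, H and I). Bulk RNA had been sequenced from 24 libraries of 12 CD1 mice, an outbred stock from an in-house colony, with 4 mice each for abdomen, back and cheek. All mice were 7 weeks old, had hair coordinated in its resting phase (telogen) and carried full-thickness punch wounds of 2 mm at their single site, 1 on the cheek or 2 on the abdomen or back. At day 3 a wound library and a library of adjacent unwounded skin, called homeostasis here, were made from each mouse, which gave 6 groups of 4 libraries that were paired within a mouse. The labels name no genetic change and give no sex, and they do not say whether the 2 wounds of a mouse were pooled. Values are FPKM, a fragment count corrected for transcript length and library size, so that levels of different genes could be set side by side per length.

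Most serpins trap a serine protease: the enzyme cleaves the reactive centre loop, the serpin changes shape and the pair stays locked together, so the sequence of the loop decides which protease is caught. Clade A serpins are mostly secreted and include many plasma proteins of the liver, clade B serpins lack a classical signal peptide and act largely inside cells and in epithelia, and clade E includes secreted inhibitors of thrombin and related proteases. Some members inhibit nothing, such as Serpinh1, which folds collagen. Mice carry tandem copies of several serpins for which people carry a single gene, among them the families of Serpina1, Serpina3, Serpinb6 and Serpinb9. The Serpinb3 family also has tandem copies in mice.

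The copies lie in 3 clusters. On GRCm38 chromosome 12, between 103616675 and 104414334, lie 23 of the 24 clade A members, Serpina7 being on the X chromosome. Clade B is divided between chromosome 1, where 12 members lie between 106861175 and 107608978, and chromosome 13, where 14 members lie between 32842092 and 34002794. Of 61 members, 43 reached 0.5 FPKM in at least 4 of the 24 libraries and were tested. The other 18 were Serpina11, Serpina16, Serpina1d, Serpina1e, Serpina1f, Serpina3a, Serpina6, Serpina7, Serpinb1b, Serpinb3c, Serpinb9c, Serpinb9e, Serpinb9f, Serpinb9g, Serpinc1, Serpind1, Serpine3 and Serpini2, and none of these exceeded 0.85 FPKM in any library. Since fragments of near-identical copies can be divided wrongly between them, every stretch of 100 bases in the annotated transcripts was searched for in all other genes. In Serpina1a, Serpina1b and Serpina1c 57.2%, 85.2% and 41.5% of the stretches were found in no other gene, so their separate values are uncertain. In the members described below with their values in every library at least 93.5% of the stretches were unique.

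The libraries differed in more than site and state, as fixed lists of marker genes showed. All 8 listed skeletal muscle genes were detected, and their summed level ran from 452.68 (abdomen mouse 2) to 20286 FPKM in homeostasis and from 1642 to 6141 FPKM in wounds. The 7 listed genes of growing hair follicles summed to 5139 FPKM in unwounded cheek of mouse 4, against the telogen label, and to at most 79.3 FPKM in the other 23 libraries. Genes of the pancreas summed to 148.76 to 443.85 FPKM in the wounds of abdomen mice 2, 3 and 4 and to 173 and 178 FPKM in unwounded back of mice 1 and 3, and to at most 4.44 FPKM elsewhere. Neutrophil genes (7 listed) summed to 8.45 to 37.8 FPKM in homeostasis and 346 to 2390.4 FPKM in wounds, macrophage genes (7) to 707 to 1517 and 1438 to 2780 FPKM, and epidermal genes (8) to 5679 to 10507 and 10395 to 18544 FPKM. Fibroblast genes (6) summed to 6849 to 17982 and 4083 to 9476 FPKM. Liver genes (8) stayed at or below 4.39 FPKM. In whole tissue, fewer cells of a type and less RNA per cell cannot be told apart.

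In homeostasis and in wounds the bulk of serpin RNA came from a few highly expressed genes. In unwounded abdomen the 61 members summed to 2988 ± 242 FPKM (SD, n = 4), in back to 2917 ± 226 FPKM and in cheek to 2377 ± 523 FPKM. In wounds the sums were 2586 ± 32.1, 2712 ± 152 and 2291 ± 300.5 FPKM at the same sites. The 5 members with the highest means held between 58.8% (abdomen wounds) and 71.8% (unwounded back) of the sum. Serping1, the C1 inhibitor of complement, ranked first in all 6 groups, with means from 375 FPKM in cheek wounds to 585 FPKM in unwounded back.

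Clade A showed the widest range between sites. Its 24 genes summed to 834 ± 241 FPKM in unwounded abdomen, 514 ± 65.6 FPKM in back and 274 ± 58.0 FPKM in cheek (SD, n = 4), and in wounds to 668 ± 76.1, 635 ± 101 and 345 ± 58.2 FPKM. The libraries of unwounded cheek, up to 316 FPKM, and those of unwounded abdomen, from 565 FPKM, did not overlap. Most of this difference lay in Serpina3j and Serpina3b. Their means were 315 and 248 FPKM in unwounded abdomen and 26.2 and 35.7 FPKM in unwounded cheek. Clade B sums overlapped between the sites, with means between 799 and 948 FPKM in the 6 groups.

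**Figure D1:**
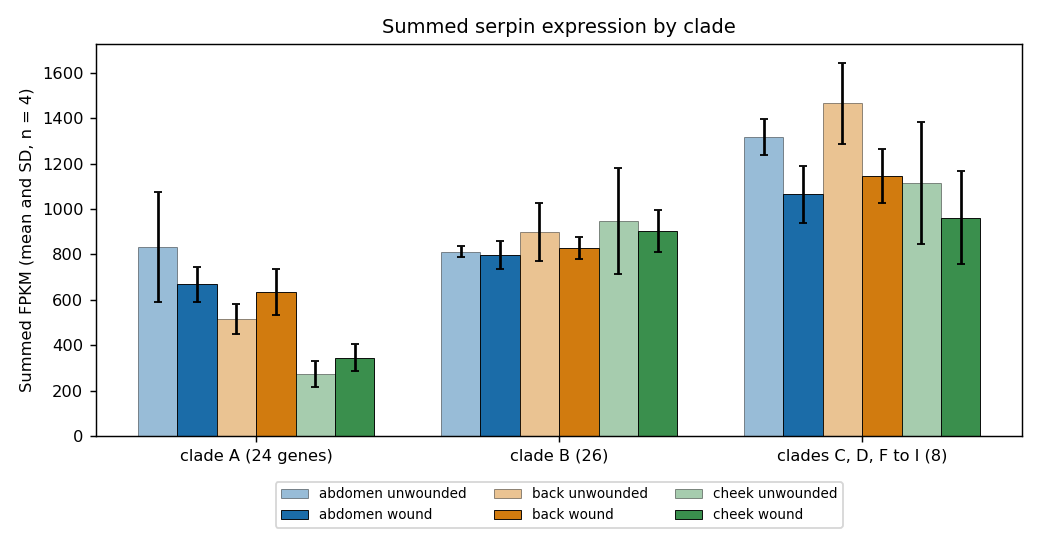
Summed FPKM of the members of a clade (bars are means of 4 libraries and error bars are SD) in unwounded skin (pale) and day 3 wounds (dark) of abdomen, back and cheek, for clade A, clade B and clades C, D and F to I. Clade A falls from 834 FPKM in unwounded abdomen to 274 FPKM in unwounded cheek, mostly through Serpina3j and Serpina3b. Clade B lies between 799 and 948 FPKM in the 6 groups.

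Wounding was the first comparison, made within mice, wound against adjacent skin, in a model of all 24 libraries. Serpinb7 fell at all 3 sites, and Serpinb3a rose in abdomen and back. Serpinb1a and Serpinb6c were called higher in back, and Serpinb12 and Serpinb3b in cheek. At an adjusted p under 0.001, the study's level for wound effects, 3 of 43 tested members were called in abdomen (2 higher, 1 lower), where 4.96% of all 14423 tested genes were called (3.92% higher, 1.04% lower). In back 5 of 43 were called (4 higher, 1 lower) beside 14.4% of all genes (10% higher, 4.37% lower), and in cheek 4 of 43 (3 higher, 1 lower) beside 8.69% (6.5% higher, 2.19% lower). At an adjusted p under 0.05 the counts were 14 of 43 beside 32.9% in abdomen, 23 beside 45.9% in back and 17 beside 36.6% in cheek. The median log2 difference of the 43 members was 0.06, 0.25 and 0.15 for abdomen, back and cheek, beside -0.01, 0.07 and 0.01 over all tested genes. These differences are on the log2(FPKM + 0.5) scale, which understates the change of genes of low level. The members' shares lay near those of all genes.

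**Figure D2:**
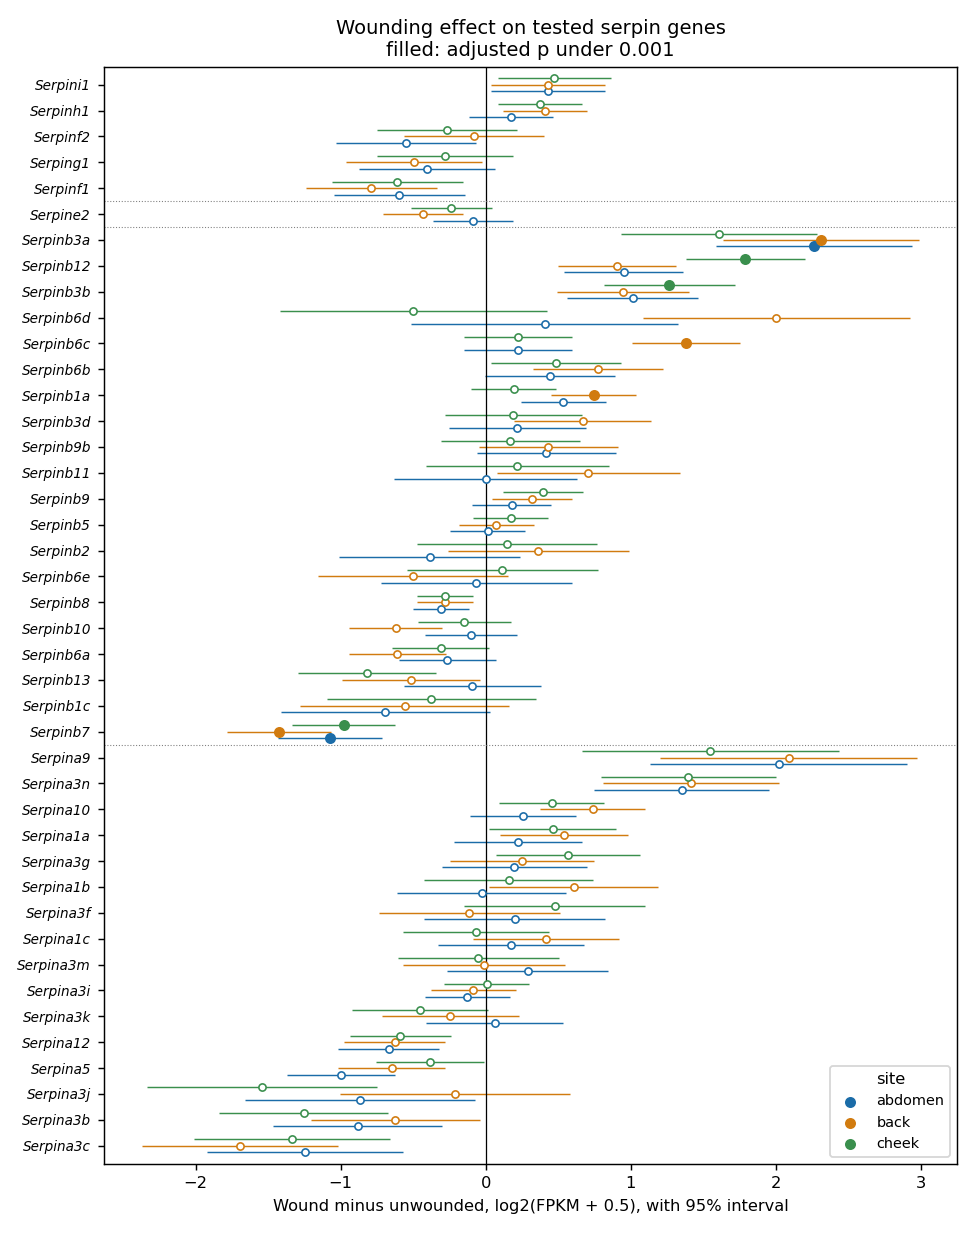
Wound minus unwounded difference on the log2(FPKM + 0.5) scale with its 95% interval for the tested serpin genes described here at abdomen, back and cheek, in blocks of clade A (bottom), clade B, clade E and the other clades (top). Filled points have an adjusted p under 0.001, and Serpinb7 is filled on the left at all 3 sites, at -1.07, -1.43 and -0.98.

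Serpine2, protease nexin 1, an inhibitor of thrombin and urokinase, is a secreted serpin of clade E. In abdomen, Serpine2 was at 26.7, 19.6, 22.3 and 22.4 FPKM in unwounded libraries and 22.0, 21.1, 21.2 and 20.8 FPKM in wounds. In back, Serpine2 was at 34.6, 39.5, 37.1 and 43.2 FPKM in unwounded libraries and 29.7, 24.4, 26.7 and 33.8 FPKM in wounds. In cheek, Serpine2 was at 38.0, 42.8, 24.3 and 44.1 FPKM in unwounded libraries and 35.4, 24.3, 27.6 and 37.8 FPKM in wounds. It was not called by wounding at any site, with log2 differences of -0.09 (SE 0.13, adjusted p = 0.63) in abdomen, -0.43 (SE 0.13, adjusted p = 0.016) in back and -0.24 (SE 0.13, adjusted p = 0.17) in cheek. No abdomen library exceeded 26.7 FPKM, and the comparison of sites is given below. Serpine3 was above 0 in 1 library, at 0.04 FPKM.

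In clade B, 6 members were called. Serpinb3a and Serpinb3b are mouse counterparts of the squamous cell carcinoma antigens, epithelial serpins that inhibit cysteine as well as serine proteases. They lie in the chromosome 1 cluster, and their open reading frames were 92.9% identical, so the coding stretch of the reactive centre loop is given for both, as 20 codons from the hinge glycine in the GENCODE M21 transcripts of GRCm38. Capitals mark the 4 of 60 bases at which Serpinb3b differs from Serpinb3a.
Serpinb3a: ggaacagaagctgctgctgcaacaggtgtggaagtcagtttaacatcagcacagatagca
Serpinb3b: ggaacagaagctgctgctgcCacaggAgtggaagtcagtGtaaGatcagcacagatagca

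In abdomen, Serpinb3a was at 2.62, 1.37, 1.84 and 0.30 FPKM in unwounded libraries and 13.7, 5.12, 12.5 and 5.13 FPKM in wounds. In back, Serpinb3a was at 1.34, 1.29, 0.49 and 1.27 FPKM in unwounded libraries and 7.23, 6.27, 6.59 and 8.95 FPKM in wounds. In cheek, Serpinb3a was at 0.42, 0.49, 1.56 and 1.51 FPKM in unwounded libraries and 2.15, 7.69, 2.96 and 3.86 FPKM in wounds. At each site every wound library lay above every unwounded library. Serpinb3a rose in abdomen by 2.27 (SE 0.31, adjusted p = 0.000299) and in back by 2.31 (SE 0.31, adjusted p = 0.000119) on the log2 scale, that is 4.81-fold and 4.97-fold. In cheek its difference was 1.61 (SE 0.31, adjusted p = 0.0019), which missed the threshold. The abdomen call was lost without 3 of the 12 mice, with an adjusted p of up to 0.0028 without abdomen mouse 4, and the back call without 2, with up to 0.0012 without back mouse 3. Leaving out the libraries with pancreas genes leaves 1 abdomen wound and 2 unwounded libraries in back. The differences were then 2.18 in abdomen and 2.17 in back (adjusted p = 0.020 in back).

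Serpinb3b was several times more abundant than Serpinb3a. In abdomen, Serpinb3b was at 13.9, 50.6, 21.4 and 27.9 FPKM in unwounded libraries and 47.2, 112, 29.6 and 46.4 FPKM in wounds. In back, Serpinb3b was at 48.7, 31.9, 19.3 and 10.8 FPKM in unwounded libraries and 98.7, 61.7, 54.9 and 14.0 FPKM in wounds. In cheek, Serpinb3b was at 37.3, 18.5, 7.98 and 23.5 FPKM in unwounded libraries and 63.4, 48.7, 20.02 and 75.6 FPKM in wounds. The groups overlapped at each site, but the wound value was the higher in all 12 mice. The rise met the threshold in cheek, at 2.41-fold (1.27, SE 0.21, adjusted p = 0.000718), and the differences were 1.01 (SE 0.21, adjusted p = 0.0037) in abdomen and 0.95 (SE 0.21, adjusted p = 0.0032) in back. The cheek call depended on pairing within mice, since the adjusted p was 0.13 without the mouse term, and it was lost without 8 of the 12 mice, with 0.0056 without cheek mouse 2 and 0.0045 without cheek mouse 4. Summed over the 4 genes of the family, to avoid dividing fragments between copies, the b3 family rose at all 3 sites, by 1.17 (SE 0.17, adjusted p = 0.00045), 1.14 (SE 0.17, adjusted p = 0.000241) and 1.29 (SE 0.17, adjusted p = 0.000145) on the log2 scale. It was the only 1 of 6 paralog families called at the threshold, the others being those of Serpina1, Serpina3, Serpinb1, Serpinb6 and Serpinb9. Of all genes tested singly 4.96%, 14.4% and 8.69% were called in abdomen, back and cheek. Serpinb3b made up most of the family sum in each library, and the family call was lost without the mouse term. The 5 listed keratins and partners of wound keratinocytes summed to 394 to 1315 FPKM in homeostasis and 2386 to 17159 FPKM in wounds, and their part in the rise was not tested.

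Serpinb12, an epithelial serpin that inhibits trypsin-like proteases, is a neighbour in the chromosome 1 cluster. In abdomen, Serpinb12 was at 32.2, 23.7, 37.7 and 12.1 FPKM in unwounded libraries and 88.8, 40.1, 59.3 and 24.2 FPKM in wounds. In back, Serpinb12 was at 26.8, 23.0, 20.8 and 32.1 FPKM in unwounded libraries and 39.9, 57.3, 40.6 and 56.7 FPKM in wounds. In cheek, Serpinb12 was at 10.9, 9.62, 13.4 and 15.4 FPKM in unwounded libraries and 22.8, 49.4, 59.9 and 51.6 FPKM in wounds. No unwounded cheek library exceeded 15.4 FPKM, and the wound value was higher in all 12 mice. Serpinb12 rose 3.46-fold in cheek (1.79, SE 0.19, adjusted p = 2.47e-05), a call that held without any of the 12 mice (adjusted p of at most 0.0003), while fitted on the 8 cheek libraries alone its adjusted p was 0.0026. The differences in abdomen and back were 0.95 (SE 0.19, adjusted p = 0.0029) and 0.91 (SE 0.19, adjusted p = 0.0021). A test of whether the response differed between sites gave an unadjusted p of 0.0093 and an adjusted p of 0.25.

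Serpinb7, or megsin, a serpin of the epidermis from the same cluster, was the member that fell at all 3 sites. In abdomen, Serpinb7 was at 50.6, 67.9, 56.6 and 71.9 FPKM in unwounded libraries and 23.1, 34.3, 25.2 and 34.6 FPKM in wounds. In back, Serpinb7 was at 67.5, 41.4, 50.5 and 72.3 FPKM in unwounded libraries and 21.5, 21.9, 15.2 and 25.9 FPKM in wounds. In cheek, Serpinb7 was at 57.8, 46.1, 48.4 and 37.5 FPKM in unwounded libraries and 34.0, 23.6, 14.4 and 26.5 FPKM in wounds. No wound library exceeded 34.6 FPKM and no unwounded library lay below 37.5 FPKM. Serpinb7 fell 2.10-fold in abdomen (-1.07, SE 0.17, adjusted p = 0.000579), 2.68-fold in back (-1.43, SE 0.17, adjusted p = 3.37e-05) and 1.97-fold in cheek (-0.98, SE 0.17, adjusted p = 0.000736), in 4 of 4 mice each. The back call held with each mouse left out. Leaving out the libraries with pancreas genes leaves 1 abdomen wound and 2 unwounded libraries in back. The differences were then -1.11 in abdomen, -1.19 in back (adjusted p = 0.020) and -0.98 in cheek (adjusted p = 0.0082). The back and cheek calls were lost in this smaller fit, although no cheek library was left out and the cheek difference was unchanged. The abdomen call was lost without 6 of the 12 mice (adjusted p of up to 0.0044, without abdomen mouse 3) and without the mouse term (0.0019), and the cheek call without 10 (up to 0.0045, without cheek mouse 2) and on the 8 cheek libraries alone (0.014). The summed level of the epidermal list was higher in wounds, as given above. Of its 8 genes 2 were called higher at each site and 1 lower in abdomen and in back. Of all tested genes 3.92%, 10% and 6.5% were called higher in abdomen, back and cheek, and 1.04% and 4.37% lower in abdomen and back.

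**Figure D3:**
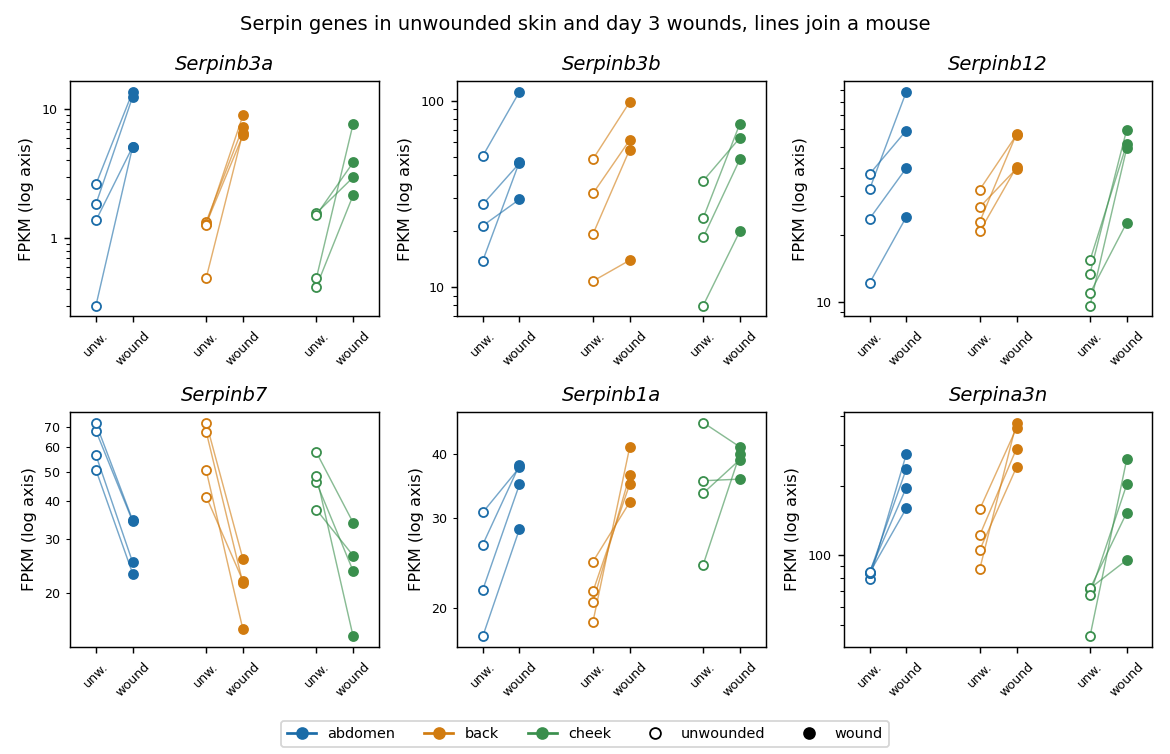
FPKM on a log axis in every library for Serpinb3a, Serpinb3b, Serpinb12, Serpinb7, Serpinb1a and Serpina3n in unwounded skin (open) and day 3 wounds (filled) of abdomen, back and cheek. Lines join the libraries of a mouse, and Serpinb7 goes down in all 12 mice, Serpinb1a goes up in all but cheek mouse 2, and the other 4 genes go up in all 12.

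Serpinb1a, an inhibitor of neutrophil elastase and cathepsin G, and Serpinb6c lie in the chromosome 13 cluster. In abdomen, Serpinb1a was at 30.8, 17.6, 21.7 and 26.6 FPKM in unwounded libraries and 37.7, 28.6, 34.9 and 38.1 FPKM in wounds. In back, Serpinb1a was at 18.8, 21.6, 20.6 and 24.7 FPKM in unwounded libraries and 41.3, 35.0, 36.4 and 32.2 FPKM in wounds. In cheek, Serpinb1a was at 33.6, 46.1, 35.5 and 24.3 FPKM in unwounded libraries and 39.0, 41.3, 35.8 and 40.0 FPKM in wounds. Unwounded back was low and its wounds did not overlap with it, whereas unwounded cheek already reached the level of the wounds. The rise in back was 1.68-fold (0.74, SE 0.14, adjusted p = 0.000808), beside 0.54 (SE 0.14, adjusted p = 0.0098) in abdomen and 0.19 (SE 0.14, adjusted p = 0.28) in cheek. This call stood close to the threshold, being lost without 9 of the 12 mice (adjusted p of up to 0.0063, without back mouse 1) and with quantile normalisation (0.0049). Its adjusted p was 0.083 without the libraries with pancreas genes, which leaves 2 unwounded libraries in back.

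The Serpinb6 family has 5 copies here, of which Serpinb6a, an intracellular inhibitor of cathepsin G, is the most abundant clade B gene. In abdomen, Serpinb6a was at 366, 196, 261 and 365 FPKM in unwounded libraries and 216, 229, 253 and 263 FPKM in wounds. In back, Serpinb6a was at 408, 486, 382 and 568 FPKM in unwounded libraries and 304, 304, 268 and 320.2 FPKM in wounds. In cheek, Serpinb6a was at 450.0, 452, 286 and 275 FPKM in unwounded libraries and 301, 288, 285 and 273 FPKM in wounds. It was not called by wounding, with differences of -0.26 (SE 0.16, adjusted p = 0.21), -0.61 (SE 0.16, adjusted p = 0.0067) and -0.31 (SE 0.16, adjusted p = 0.13) in abdomen, back and cheek. The copies carry different reactive loops. Shown from the hinge glycine for 20 codons, the stretches of Serpinb6c, Serpinb6d and Serpinb6e differed from that of Serpinb6a at 27, 26 and 30 of 60 bases (capitals), though the whole reading frames were 82.1%, 75.1% and 73.1% identical to it.
Serpinb6a: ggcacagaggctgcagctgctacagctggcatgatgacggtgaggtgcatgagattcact
Serpinb6c: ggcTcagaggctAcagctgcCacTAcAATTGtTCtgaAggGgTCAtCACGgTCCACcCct
Serpinb6d: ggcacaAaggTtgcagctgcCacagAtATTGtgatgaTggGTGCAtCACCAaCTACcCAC
Serpinb6e: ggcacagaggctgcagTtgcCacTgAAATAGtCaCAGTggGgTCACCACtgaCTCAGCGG

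In abdomen, Serpinb6c was at 35.0, 53.4, 50.2 and 30.6 FPKM in unwounded libraries and 66.7, 47.2, 62.1 and 27.3 FPKM in wounds. In back, Serpinb6c was at 14.1, 9.99, 11.1 and 15.0 FPKM in unwounded libraries and 32.3, 34.0, 37.5 and 28.7 FPKM in wounds. In cheek, Serpinb6c was at 25.8, 26.1, 32.4 and 28.4 FPKM in unwounded libraries and 29.6, 27.1, 38.1 and 37.9 FPKM in wounds. Unwounded back was the lowest group, none of its libraries above 15.0 FPKM, and its wounds came up to the range of cheek. Serpinb6c rose 2.60-fold in back wounds (1.38, SE 0.17, adjusted p = 5.99e-05) and the call held without any of the 12 mice (adjusted p of at most 0.00073). It was lost without the libraries with pancreas genes, which leaves 2 unwounded libraries in back (1.32, adjusted p = 0.0019). The differences were 0.22 (SE 0.17, adjusted p = 0.34) in abdomen and 0.22 (SE 0.17, adjusted p = 0.34) in cheek. The test of a response that differed between sites gave an unadjusted p of 0.000456, the smallest among the members, and an adjusted p of 0.15. Serpinb6d, in the same direction, had a back difference of 2.00 (SE 0.42, adjusted p = 0.003).

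The remaining clade B members gave smaller or more variable differences. Of 20 tested members of the clade, 2, 4 and 3 were called in abdomen, back and cheek, beside 4.96%, 14.4% and 8.69% of all tested genes. The medians were 0.10, 0.40 and 0.17 on the log2 scale, beside -0.01, 0.07 and 0.01 over all tested genes. Serpinb5 (maspin), a serpin of epithelia that inhibits no known protease in the usual way, was high throughout, between 137 and 225 FPKM. Its wound differences were 0.02 (SE 0.12, adjusted p = 0.93), 0.08 (SE 0.12, adjusted p = 0.63) and 0.17 (SE 0.12, adjusted p = 0.28). Serpinb2, plasminogen activator inhibitor 2, ranged from 30.7 to 88.5 FPKM, with differences of -0.39 (SE 0.28, adjusted p = 0.32), 0.36 (SE 0.28, adjusted p = 0.32) and 0.15 (SE 0.28, adjusted p = 0.72). Serpinb8 had an adjusted p under 0.05 at each site, with differences of -0.31, -0.28 and -0.28. Serpinb9, an inhibitor of granzyme B, lay between 3.20 and 7.96 FPKM and had differences of 0.18, 0.32 and 0.40.

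In clade A, 0 of 16 tested members were called by wounding at any site by limma at the 0.001 level. Of all tested genes 4.96%, 14.4% and 8.69% were called in abdomen, back and cheek. At an adjusted p under 0.05 the counts were 6, 7 and 7 of 16, beside 32.9%, 45.9% and 36.6% of all tested genes. Serpina3n, a mouse counterpart of alpha-1-antichymotrypsin and an acute-phase inhibitor of leukocyte proteases, had the highest levels among them in wounds. In abdomen, Serpina3n was at 78.7, 83.7, 83.9 and 84.8 FPKM in unwounded libraries and 273, 236, 159 and 196 FPKM in wounds. In back, Serpina3n was at 122, 106, 158 and 87.3 FPKM in unwounded libraries and 289, 240.0, 354 and 374 FPKM in wounds. In cheek, Serpina3n was at 71.6, 71.9, 67.6 and 44.6 FPKM in unwounded libraries and 153, 95.4, 202 and 259.6 FPKM in wounds. Wounds were higher in all 12 mice and did not overlap with homeostasis at any site, but the adjusted p remained above 0.001, with differences of 1.35 (SE 0.28, adjusted p = 0.004), 1.42 (SE 0.28, adjusted p = 0.0017) and 1.40 (SE 0.28, adjusted p = 0.0025). Serpina9, known from germinal centre B cells, gave 2.02 (SE 0.40, adjusted p = 0.0034), 2.09 (SE 0.40, adjusted p = 0.0016) and 1.55 (SE 0.40, adjusted p = 0.012) from levels of at most 1.80 FPKM in homeostasis and 0.74 to 6.15 FPKM in wounds. In homeostasis Serpina9 reached the 0.5 FPKM of the filter only in cheek mice 3 and 4. It was thus tested mainly through wounds, the group where it was high. Serpina10, which enters the counts of the clade, reached that level only in wounds. Serpina3c had differences of -1.24, -1.69 and -1.34 (adjusted p = 0.011, 0.0012 and 0.0063), and Serpina12 (vaspin), a serpin of skin and fat, of -0.67, -0.63 and -0.59 (adjusted p = 0.008, 0.0071 and 0.013). The 6 listed adipocyte genes summed to 772 to 2631 FPKM in homeostasis and 582 to 1339 FPKM in wounds. Their median differences were -1.25, -1.49 and -0.66 in abdomen, back and cheek. At an adjusted p under 0.05, 6, 6 and 5 of them were lower, beside 16%, 17.9% and 16.9% of all tested genes. At the 0.001 level 0, 3 and 0 were lower, beside 1.04%, 4.37% and 2.19%. The part of the adipocyte genes was not tested.

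Among the other clades, 0 of 5 tested members were called by wounding, beside 4.96%, 14.4% and 8.69% of all tested genes in abdomen, back and cheek. At an adjusted p under 0.05 the counts were 1, 2 and 2 of 5, beside 32.9%, 45.9% and 36.6% of all tested genes. Serpinf1, pigment epithelium-derived factor, which restrains vessel growth and inhibits no protease, was one of the most abundant. In abdomen, Serpinf1 was at 465, 475, 568 and 471 FPKM in unwounded libraries and 267, 290.5, 341 and 429 FPKM in wounds. In back, Serpinf1 was at 520.2, 605, 630.0 and 575 FPKM in unwounded libraries and 312, 311, 304 and 435 FPKM in wounds. In cheek, Serpinf1 was at 498, 505, 440.2 and 240.1 FPKM in unwounded libraries and 343, 208, 229 and 300.4 FPKM in wounds. The wound values were lower in 11 of 12 mice, cheek mouse 4 being the exception, with differences of -0.59 (SE 0.21, adjusted p = 0.044), -0.79 (SE 0.21, adjusted p = 0.0083) and -0.61 (SE 0.21, adjusted p = 0.037). The 6 listed fibroblast genes, which include stromal genes of high level, had a median difference of -0.69, -0.73 and -0.62 at the same sites, and their part was not tested.

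Serping1 restrains the C1 proteases of complement and also kallikrein. In abdomen, Serping1 was at 522, 572, 523 and 501 FPKM in unwounded libraries and 359.8, 438, 360.2 and 449 FPKM in wounds. In back, Serping1 was at 477, 559, 717 and 586 FPKM in unwounded libraries and 398, 339, 461 and 455 FPKM in wounds. In cheek, Serping1 was at 596, 538, 404 and 274 FPKM in unwounded libraries and 501, 219, 348 and 431 FPKM in wounds. The groups did not overlap in abdomen or back, yet the differences were -0.40 (SE 0.22, adjusted p = 0.17), -0.50 (SE 0.22, adjusted p = 0.078) and -0.28 (SE 0.22, adjusted p = 0.34), none below 0.05. Of 4 listed target proteases of the C1 and lectin pathways 3 were tested and 0 called by limma, with Masp1 at 0.42, 0.93 and 1.05 (adjusted p = 0.12, 0.0023 and 0.0016) and C1ra at 0.35, 0.49 and 0.60 (adjusted p = 0.15, 0.038 and 0.019).

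Serpinh1, or HSP47, is the chaperone of procollagen in the endoplasmic reticulum. In abdomen, Serpinh1 was at 244, 311, 314 and 301 FPKM in unwounded libraries and 352, 271, 328 and 372 FPKM in wounds. In back, Serpinh1 was at 255, 276, 342 and 316 FPKM in unwounded libraries and 392, 368, 400.4 and 408 FPKM in wounds. In cheek, Serpinh1 was at 219, 261, 259 and 225 FPKM in unwounded libraries and 302, 318, 254 and 390.2 FPKM in wounds. Back wounds lay wholly above their homeostasis group, and wounds of abdomen and cheek overlapped with theirs, and the differences were 0.17 (SE 0.13, adjusted p = 0.34), 0.41 (SE 0.13, adjusted p = 0.025) and 0.38 (SE 0.13, adjusted p = 0.042). Among 9 listed genes of collagen and its folding, 1, 5 and 3 rose in abdomen, back and cheek and 1 fell in back. Of all tested genes 3.92%, 10% and 6.5% rose at these sites and 4.37% fell in back. The riser of largest mean size was Plod2, a lysyl hydroxylase of collagen, at 2.10, 2.97 and 1.52 (adjusted p = 0.000174, 5.77e-06 and 0.0011), and the gene that fell was Col1a2, a chain of type I collagen, at -1.26 in back (adjusted p = 0.000479).

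Clades C, D and I, of which the member with the highest mean is given, stayed below 1 FPKM. Antithrombin (Serpinc1) was at 0, 0.03, 0.18 and 0.06 FPKM in unwounded libraries and 0, 0.11, 0.05 and 0.05 FPKM in wounds in abdomen. It was at 0.23, 0.17, 0.06 and 0.03 FPKM in unwounded libraries and 0.08, 0.08, 0.08 and 0.03 FPKM in wounds in back. It was at 0.03, 0.06, 0 and 0.06 FPKM in unwounded libraries and 0.05, 0.03, 0.03 and 0.08 FPKM in wounds in cheek. No library exceeded 0.23 FPKM. Heparin cofactor 2 (Serpind1) was at 0.24, 0.32, 0.18 and 0.20 FPKM in unwounded libraries and 0.14, 0.06, 0.17 and 0.11 FPKM in wounds in abdomen. Its values were 0.74, 0.27, 0.67 and 0.32 FPKM in unwounded libraries and 0.20, 0.26, 0.28 and 0.27 FPKM in wounds in back. Its values were 0.33, 0.24, 0.06 and 0.44 FPKM in unwounded libraries and 0.46, 0.11, 0.31 and 0.03 FPKM in wounds in cheek. Both genes were untested for their low level. Neuroserpin (Serpini1) was at 0.09, 0.20, 0.08 and 0.15 FPKM in unwounded libraries and 0.30, 0.55, 0.22 and 0.35 FPKM in wounds in abdomen. The same gene was at 0.40, 0.12, 0.11 and 0.12 FPKM in unwounded libraries and 0.26, 0.56, 0.30 and 0.58 FPKM in wounds in back. The same gene was at 0.38, 0.43, 0.13 and 0.39 FPKM in unwounded libraries and 0.73, 0.66, 0.72 and 0.48 FPKM in wounds in cheek. Its differences of 0.43 (SE 0.18, adjusted p = 0.083), 0.43 (SE 0.18, adjusted p = 0.067) and 0.47 (SE 0.18, adjusted p = 0.056) rested on levels of at most 0.73 FPKM. No unwounded library reached the 0.5 FPKM of the filter. Serpini1 was thus tested only through wounds, the group where it was high, and its differences are not read as a rise. Alpha-2-antiplasmin (Serpinf2), the inhibitor of plasmin, lay between 0.14 and 1.30 FPKM, and Serpini2, a serpin of the pancreas, did not exceed 0.09 FPKM in any library, those with pancreas genes included.

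The sites were compared next, first in homeostasis, among 37 tested members in the 12 unwounded libraries. Members of the Serpina3 and Serpinb6 families gave 8 of the 10 calls: Serpina3b and Serpina3j were highest in abdomen and lowest in cheek, Serpinb6c was lowest in back, and Serpinb6d and Serpinb6e ran in opposite directions between cheek and back. Between back and abdomen 3 of 37 members had an adjusted p under 0.05 (1 higher and 2 lower in back), beside 2.67% of 13956 genes (0.53% higher, 2.14% lower). Between cheek and abdomen there were 3 of 37, all lower in cheek, beside 2.57% (1.23% lower). Between cheek and back there were 4 of 37, 2 in each direction, beside 1.05% (0.559% higher, 0.494% lower). These FPKM values were not scaled between libraries, and the median of all genes was -0.12 between back and abdomen and 0.14 between cheek and back on the log2 scale.

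The Serpina3 copies carry different reactive loops. The first 20 codons from the hinge glycine are given for the acute-phase member Serpina3n and for Serpina3b, Serpina3j and Serpina3c, with capitals where a base differs from Serpina3n, at 21, 21 and 24 of 60 bases. Over the whole reading frame Serpina3b and Serpina3j were 82.3% identical to each other, and over this stretch 66.7%.
Serpina3n: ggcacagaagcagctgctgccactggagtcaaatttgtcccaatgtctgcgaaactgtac
Serpina3b: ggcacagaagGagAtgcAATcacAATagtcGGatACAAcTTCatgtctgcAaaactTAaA
Serpina3j: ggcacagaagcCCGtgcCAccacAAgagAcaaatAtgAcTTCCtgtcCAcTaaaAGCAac
Serpina3c: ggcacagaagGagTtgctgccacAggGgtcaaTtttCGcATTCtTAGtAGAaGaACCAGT

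In abdomen, Serpina3b was at 359, 175, 309 and 149 FPKM in unwounded libraries and 116, 126, 175 and 97.7 FPKM in wounds. In back, Serpina3b was at 55.8, 92.4, 82.4 and 71.8 FPKM in unwounded libraries and 38.8, 67.8, 32.5 and 62.3 FPKM in wounds. In cheek, Serpina3b was at 33.0, 53.2, 31.0 and 25.4 FPKM in unwounded libraries and 17.9, 19.96, 6.24 and 17.5 FPKM in wounds. The 3 sites did not overlap in homeostasis or in wounds, with abdomen above back and back above cheek. In homeostasis Serpina3b was 3.10-fold lower in back (-1.63, SE 0.30, adjusted p = 0.016) and 6.67-fold lower in cheek (-2.74, SE 0.30, adjusted p = 0.000716) than in abdomen, and the cheek and back difference was -1.10 (SE 0.30, adjusted p = 0.1). The call between cheek and abdomen held without each of the 12 mice, with an adjusted p of at most 0.0046. The call between back and abdomen was lost without abdomen mouse 3 (adjusted p = 0.063) and without the libraries with pancreas genes (-1.50, adjusted p = 0.13).

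Serpina3j was the third most abundant serpin of unwounded abdomen. In abdomen, Serpina3j was at 434, 243, 422 and 161 FPKM in unwounded libraries and 153, 174, 239 and 102 FPKM in wounds. In back, Serpina3j was at 66.6, 202, 85.8 and 213 FPKM in unwounded libraries and 74.3, 176, 54.8 and 192 FPKM in wounds. In cheek, Serpina3j was at 14.3, 41.4, 33.5 and 15.8 FPKM in unwounded libraries and 4.37, 12.99, 3.81 and 16.3 FPKM in wounds. No cheek library exceeded 41.4 FPKM and no library of another site lay below 54.8 FPKM. Back mice fell into a high pair, mice 2 and 4, and a low pair, mice 1 and 3, in both states. Cheek was 12.1-fold lower than abdomen in homeostasis (-3.59, SE 0.51, adjusted p = 0.0072), a call held without each of the 12 mice (adjusted p of at most 0.035), and the differences were -2.38 (SE 0.51, adjusted p = 0.057) between cheek and back and -1.21 (SE 0.51, adjusted p = 0.2) between back and abdomen. Serpina5, the protein C inhibitor, was the third gene lower in cheek than in abdomen (-0.98, SE 0.24, adjusted p = 0.05), from levels of 1.35, 1.15, 1.79 and 0.67 FPKM in unwounded abdomen and 0.51, 0.28, 0.41 and 0.25 FPKM in unwounded cheek. That call was lost without 10 of the 12 mice, with an adjusted p of up to 0.16 without abdomen mouse 3 and 0.10 without cheek mouse 4. Serpina3n was 1.83-fold lower in unwounded cheek than in back (-0.87, SE 0.18, adjusted p = 0.038), and this call was lost without 11 of the 12 mice, with up to 0.097 without back mouse 3 and 0.071 without cheek mouse 4, the mouse with the hair follicle genes. Without the libraries with pancreas genes the adjusted p was 0.30 for this Serpina3n difference and 0.075 for that of Serpina5.

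In the Serpinb6 family the sites differed gene by gene. Serpinb6c was 3.24-fold lower in unwounded back than in abdomen (-1.70, SE 0.18, adjusted p = 0.000873) and 2.22-fold higher in cheek than in back (1.15, SE 0.18, adjusted p = 0.0085), and both calls held without each of the 12 mice. Serpinb6d was at 13.7, 30.8, 26.8 and 34.2 FPKM in unwounded libraries and 33.6, 17.1, 39.8 and 53.6 FPKM in wounds in abdomen. It was at 7.45, 1.58, 7.43 and 4.81 FPKM in unwounded libraries and 24.3, 22.3, 17.8 and 16.97 FPKM in wounds in back. It was at 374, 75.0, 99.9 and 39.6 FPKM in unwounded libraries and 249.17, 99.2, 34.3 and 32.4 FPKM in wounds in cheek. Cheek mouse 1 was the highest in both states, and unwounded back was the lowest group. Unwounded cheek was 20.1-fold above back (4.33, SE 0.68, adjusted p = 0.018), a call lost without cheek mouse 3 (adjusted p = 0.059), while the difference from abdomen was 2.02 (SE 0.68, adjusted p = 0.15).

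Serpinb6e showed the reverse order. In abdomen, Serpinb6e was at 1.79, 0.45, 0.26 and 2.10 FPKM in unwounded libraries and 0.59, 1.08, 0.89 and 1.00 FPKM in wounds. In back, Serpinb6e was at 5.59, 1.2, 3.95 and 6.49 FPKM in unwounded libraries and 4.51, 1.5, 1.54 and 3.44 FPKM in wounds. In cheek, Serpinb6e was at 0.04, 0.13, 0.12 and 0 FPKM in unwounded libraries and 0.04, 0.20, 0.12 and 0.12 FPKM in wounds. No cheek library exceeded 0.20 FPKM and no back library lay below 1.2 FPKM, so cheek and back did not overlap in either state. Unwounded cheek was lower than back by -2.89 (SE 0.47, adjusted p = 0.014) on the log2 scale, a call lost without back mouse 1 (adjusted p = 0.050). With the pancreas-containing libraries left out, which leaves 2 unwounded libraries in back, the cheek and back differences were 1.16 for Serpinb6c, 4.96 for Serpinb6d and -2.60 for Serpinb6e, with adjusted p of 0.10, 0.10 and 0.19.

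Serpine2 was the serpin higher in back than in abdomen in homeostasis, 1.69-fold (0.75, SE 0.17, adjusted p = 0.034), without overlap of the libraries. The cheek and abdomen difference was 0.67 (SE 0.17, adjusted p = 0.054). The call between back and abdomen was lost without 6 of the 12 mice, with an adjusted p of up to 0.12 without abdomen mouse 2, the mouse with the lowest muscle genes. It was also lost without the libraries with pancreas genes (0.85, adjusted p = 0.13).

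**Figure D4:**
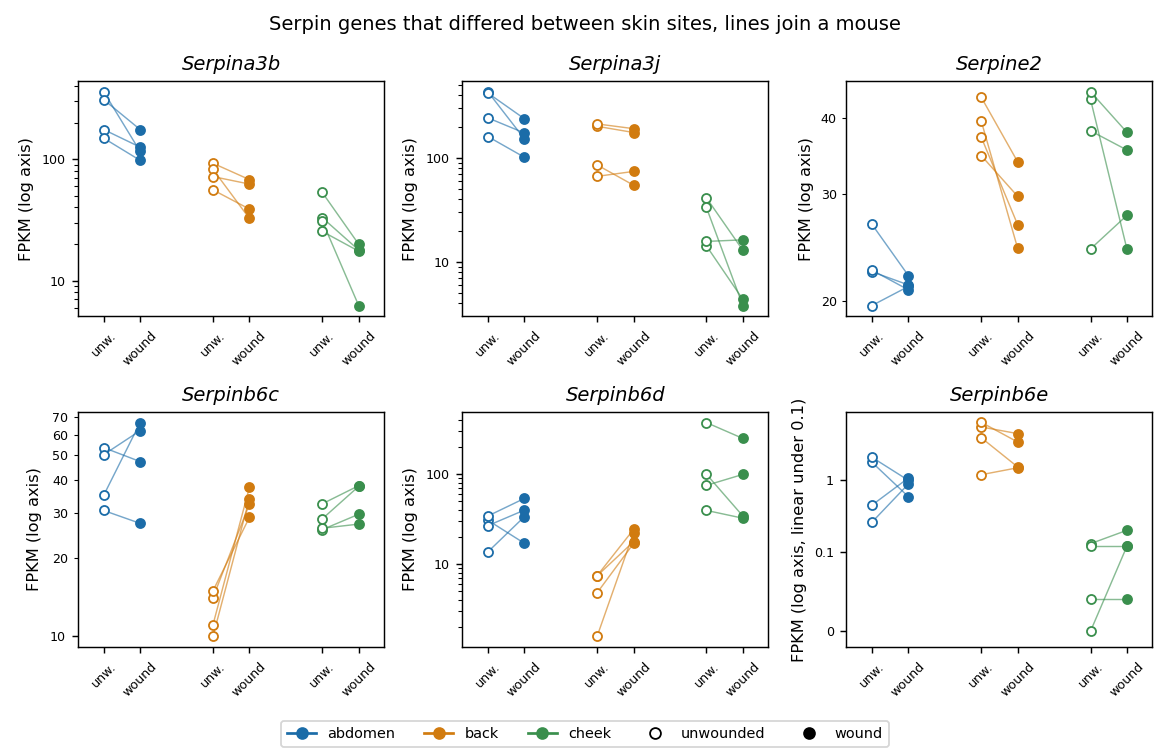
FPKM in every library for Serpina3b, Serpina3j, Serpine2, Serpinb6c, Serpinb6d and Serpinb6e in unwounded skin (open) and day 3 wounds (filled) of abdomen, back and cheek, on log axes (Serpinb6e linear under 0.1). Lines join the libraries of a mouse, with the 3 sites separate for Serpina3b in both states and cheek below 0.20 FPKM or at it for Serpinb6e.

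In wounds the sites were compared over 41 tested members in 12 libraries. Between cheek and abdomen 6 of 41 members differed (1 higher and 5 lower in cheek), beside 10.8% of 14023 genes (7.52% higher, 3.32% lower), and between cheek and back 3 of 41, all lower in cheek, beside 2.5% (0.599% lower). Between back and abdomen 0 of 41 were called by limma, beside 1.27% of genes. These comparisons of wounds share their libraries with each other, as do those of homeostasis.

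Serpina3b, Serpina3j and Serpinb6e were lower in cheek wounds than in those of both other sites. Serpina3b was 8.63-fold lower in cheek than in abdomen wounds (-3.11, SE 0.36, adjusted p = 0.0013) and 3.33-fold lower than in back wounds (-1.73, SE 0.36, adjusted p = 0.041), the latter call being lost without 7 of the 12 mice (adjusted p of up to 0.12, without back mouse 4). Serpina3j was 19.3-fold lower in cheek than in abdomen wounds (-4.27, SE 0.54, adjusted p = 0.0025) and 13.1-fold lower than in back wounds (-3.71, SE 0.54, adjusted p = 0.011), both held without each of the 12 mice. Serpinb6e was lower in cheek than in back wounds (-2.28, SE 0.27, adjusted p = 0.0012), held without each mouse, and lower than in abdomen wounds (-1.16, SE 0.27, adjusted p = 0.025), lost without 4 of the 12 (up to 0.063, without abdomen mouse 3). With the pancreas-containing libraries left out, which leaves 1 abdomen wound assumed to vary like the others, the differences between cheek and abdomen were -2.99 for Serpina3b, -4.21 for Serpina3j and -0.82 for Serpinb6e, with adjusted p of 0.074, 0.086 and 0.38.

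The remaining calls in wounds were between cheek and abdomen. Serpina3k was at 0.22, 0.16, 0.22 and 0.12 FPKM in cheek wounds and 0.44, 0.50, 0.62 and 0.79 FPKM in abdomen wounds (-0.67, SE 0.13, adjusted p = 0.015). Serpinb1c was at 0.36, 0.07, 0.22 and 0.15 FPKM in cheek wounds and 0.70, 0.97, 1.13 and 0.86 FPKM in abdomen wounds (-1.02, SE 0.20, adjusted p = 0.014). Neither pair of groups overlapped. Among wounds, Serpina3k reached the 0.5 FPKM of the filter only in abdomen and in a back wound at 0.55 FPKM. It was thus tested mainly through the group where it was high. It entered 8 of the 12 fits with a mouse left out, and the call held in those. Without the libraries with pancreas genes Serpina3k was too low to be tested. The Serpinb1c call was lost in a fit of all 24 libraries (adjusted p = 0.0999) and without the libraries with pancreas genes (-0.79, adjusted p = 0.26). Serpine2 was 1.44-fold higher in cheek than in abdomen wounds (0.52, SE 0.13, adjusted p = 0.033), a call lost without 5 of the 12 mice (up to 0.077, without abdomen mouse 3) and with median-ratio scaling (0.062), and its adjusted p was 0.33 without the libraries with pancreas genes.

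Whether the wound response itself differed between the sites was tested with a moderated F test, which called 0 of 43 members by limma at an adjusted p under 0.05, beside 0.0208% of all genes, that is 3 genes. An unadjusted p under 0.05 was found for 4 of 43, namely Serpinb6c, Serpinb6d (0.0048), Serpinb12 and Serpinb1a (0.039). The share of all genes at that unadjusted cut is not given, so the count is not read as a result about the members. A wound call at some sites and not at others, as for Serpinb3a, Serpinb3b, Serpinb12, Serpinb6c and Serpinb1a, was therefore not shown to be a difference between sites.

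The sequence before the start site was looked at for called members of the chromosome 1 cluster. RefSeq promoter windows of GRCm38.p6 matched 52 of 61 members and 35 of 43 tested members. The last 100 bases before the annotated start are given for Serpinb3a (chr1:107052304-107052403, minus strand), Serpinb3b (chr1:107161115-107161214, minus strand) and, as the member that fell, Serpinb7 (chr1:107422589-107422688, plus strand). Capitals mark TATAAA in the first 2 and TGANTCA, a letter pattern bound by AP-1 factors, in Serpinb7.
Serpinb3a promoter: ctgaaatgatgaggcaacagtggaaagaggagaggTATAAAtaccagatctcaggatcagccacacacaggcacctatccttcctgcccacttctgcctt
Serpinb3b promoter: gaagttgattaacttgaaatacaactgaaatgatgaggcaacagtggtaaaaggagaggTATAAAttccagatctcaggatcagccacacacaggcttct
Serpinb7 promoter: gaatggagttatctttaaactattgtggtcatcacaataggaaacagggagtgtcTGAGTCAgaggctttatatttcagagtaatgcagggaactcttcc

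The Serpinb3a and Serpinb3b windows shared a stretch of 72 bases with 69 identical. On either strand of the 250 bases before the start, TATAAA was found in 12.4% of 32851 promoter windows and in 10 of the 35 tested members matched, among them Serpinb3a, Serpinb3b, Serpinb7 and Serpinb12. TGANTCA, which reads the same on both strands, was found in 6.75% of windows and in 10 of 35 members, among them Serpinb7, Serpinb12, Serpinb2, Serpinb5 and Serpinb8. TTCNNNGAA, a pattern of STAT factors and also its own reverse, was found in 7.02% of windows and in 5 of 35 members. The percentages are over windows, whereas a member was counted if any of its windows matched, so the percentages and the counts of members are unlike measures. A match describes letters only.

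Proteases and related genes were read beside the serpins, from lists chosen by function. Not every listed gene encodes a protease, and inhibition by a serpin was not tested. For all counts that follow, 3.92%, 10% and 6.5% of all tested genes rose in abdomen, back and cheek at the same threshold and 1.04%, 4.37% and 2.19% fell, and the lists were not tested as sets. Of 10 tested genes of plasminogen activation and clotting, 1, 3 and 5 rose in wounds of abdomen, back and cheek, with medians of 0.33, 0.61 and 0.78 on the log2 scale. Plaur, the urokinase receptor, rose at each site, by 2.49 (SE 0.20, adjusted p = 8.35e-06), 2.86 (SE 0.20, adjusted p = 1.09e-06) and 3.20 (SE 0.20, adjusted p = 6.39e-07). F10, coagulation factor X, rose in back and cheek (2.88 and 2.13, adjusted p = 7.49e-06 and 0.000101) and stood at 1.57 in abdomen (adjusted p = 0.0013). Of 11 tested granule proteases of neutrophils, mast cells and cytotoxic cells, 1, 3 and 2 rose. Gzma, granzyme A, rose at each site by 2.71, 2.22 and 2.29 (adjusted p = 3.08e-05, 4.8e-05 and 5.14e-05), while Gzmb, granzyme B, rose in back by 2.15 (adjusted p = 0.000413) and stood at 2.09 and 1.45 in abdomen and cheek (adjusted p = 0.0011 and 0.0068).

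Of 13 tested epidermal proteases, 3, 4 and 5 rose. Klk13, a kallikrein of stratified epithelia, rose by 3.46 in abdomen (adjusted p = 5.93e-05), 4.41 in back (adjusted p = 4.48e-06) and 3.46 in cheek (adjusted p = 3.45e-05), and Klk6 by 2.61, 3.24 and 2.94 (adjusted p = 0.000399, 4.47e-05 and 0.00012). Of 10 cysteine proteases, 4, 6 and 6 rose, among them Ctss, cathepsin S of antigen-presenting cells, by 1.80, 2.53 and 2.37 (adjusted p = 7.12e-05, 2.17e-06 and 4.53e-06). Casp14, a caspase of the cornifying epidermis, rose in back and cheek by 2.44 and 2.33 (adjusted p = 0.000219 and 0.000434) and stood at 2.00 in abdomen (adjusted p = 0.0016). None of the tested genes of these lists fell at the threshold. Of 24 other protease inhibitors, 9, 10 and 10 rose and 1, 3 and 1 fell. The stefin genes BC100530 and Stfa2, inhibitors of cysteine cathepsins, rose at all sites, Stfa2 by 4.86 (SE 0.48, adjusted p = 6.74e-05) in abdomen, 7.23 (SE 0.48, adjusted p = 2.05e-06) in back and 5.42 (SE 0.48, adjusted p = 1.83e-05) in cheek. In wounds these inhibitors summed to 4157 to 10756 FPKM, beside 1931 to 3280 FPKM in homeostasis.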

How the data were processed

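Total RNA from 24 samples of whole mouse skin or wound tissue had been sequenced as paired-end reads on a BGISEQ-500. The deposited values are FPKM per gene, made by the authors with HISAT2, Bowtie2 2.2.5 and RSEM 1.2.12 against mm10 as the submitters' processing notes and the study's methods name them; the annotation version is not given in the sources used here. An accompanying table with the authors' log2 fold changes and p-values was not used. FPKM carries no read totals, so the depth of each library is unknown and no counting interval is given. Summed FPKM ran from 490830 to 608888 per library, and the steps between low values of 44 genes gave a rough relative depth of 0.923 to 1.05. 

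A gene entered a fit if it reached 0.5 FPKM in 4 or more of its libraries. The log2(FPKM + 0.5) values were fitted with limma 3.58.1 (statmod 1.5.0, R 4.3.3), with intensity trend and robust variances, two-sided tests and Benjamini-Hochberg adjustment over all genes tested. Wound effects came from all 24 libraries with the mouse as a block, and site effects from the 12 unwounded or the 12 wound libraries. Calls required an adjusted p under 0.001 for wounding and under 0.05 between sites. A moderated F test addressed whether the response differed between sites. The scripts were tested on simulated data.

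The wound and unwounded libraries of a mouse are paired by design. Their deviations from group means correlated at a mean of 0.322 (abdomen), 0.348 (back) and 0.281 (cheek), with the lowest at -0.030 for an abdomen mouse, beside -0.108, -0.116 and -0.0958 between different mice. Libraries with the same mouse number at different sites come from different mice. Replicates are separate mice.

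Every called member is named. Values in every library are given for the wound-called members (at most 8, by mean absolute change), the 4 of smallest adjusted p between sites, the member of highest mean in each clade, and Serpinh1 and Serping1; 1 item that the rule takes in is not reported here, though counts over all members include it. Of each list of proteases, collagen partners and other inhibitors, the 2 genes of largest mean change are examples. Members, gene lists and this rule were chosen with earlier results of these data known. Alternatives changed the pseudocount, filter, scaling, mouse term, variance model, libraries fitted and mice included.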

Additional observations from a re-analysis of the deposited data

Results flagged for a closer look

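In the groups of 4 libraries, 9 of 138 gene and group combinations held a library whose gap to its nearest neighbour exceeded Dixon's 95% critical value on the log2(FPKM + 0.5) scale, where chance gives about 1 in 20. Serpina3b was at 6.24 FPKM in the cheek wound of mouse 3, beside 17.48 to 19.96 FPKM in the other cheek wounds. Serpina3n was at 44.63 FPKM in unwounded cheek of mouse 4, the library with growing hair follicle genes, beside 67.6 to 71.9 FPKM. Serpinb3a was at 0.49 FPKM in unwounded back of mouse 3, beside 1.27 to 1.34 FPKM. Serpinf1 stood high at 568.28 FPKM in unwounded abdomen of mouse 3, beside 465 to 475 FPKM, and at 435.01 FPKM in the back wound of mouse 4, beside 304 to 312 FPKM. Serpinh1 stood low at 244.1 FPKM in unwounded abdomen of mouse 1, beside 301 to 314 FPKM. The remaining cases lay near the limit of detection: Serpini1 at 0.4 FPKM in unwounded back of mouse 1 (others 0.11 to 0.12 FPKM) and at 0.13 FPKM in unwounded cheek of mouse 3 (others 0.38 to 0.43 FPKM), and Serpinc1 at 0.03 FPKM in the back wound of mouse 4 (others 0.08 FPKM).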

How the results depend on the processing

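For the single calls, 245 of 276 fits under alternative settings kept direction and side of the threshold, 31 lost the call and 0 turned direction, and with a mouse left out these were 284, 84 and 0 of 368. The cause of the following changes was not tested, except that smaller fits hold fewer libraries. Members called by wounding numbered 3 in abdomen, 5 in back and 4 in cheek. Fitted on the 8 libraries of each site they were 1, 10 and 1, and at an adjusted p under 0.05 they were 14, 23 and 17. Without the replicate block for the mouse they were 3, 8 and 3 and the Serpinb3 family sum was lost (0 families in place of 1), and without a filter 2 were called in cheek. Between sites in homeostasis, a fit of all 24 libraries called 7 members for back and abdomen and 6 for cheek and abdomen, each in place of 3. Between sites in wounds it called 1 for back and abdomen in place of 0, as quantile normalisation did, and 3 for cheek and abdomen in place of 6. A fit with neither trend nor robust variances called 5 for cheek and back wounds in place of 3. A replicate block on mouse number between sites gave 2, 2 and 3 calls in homeostasis and 0, 6 and 2 in wounds (back and abdomen, cheek and abdomen, cheek and back), and these numbers join different mice.

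Leaving out the 5 libraries with pancreas genes, an alternative chosen after seeing the data, leaves 1 abdomen wound and 2 unwounded libraries in back. It gave 1 and 3 calls by wounding for back and cheek, with no cheek library left out. In homeostasis it gave 1 for back and abdomen, 2 for cheek and abdomen and 0 for cheek and back, and in wounds 0 for cheek and abdomen.

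Leaving out 1 of the 12 mice gave 1 to 4 wound calls in abdomen (1 without abdomen mouse 1 or 3), 3 to 9 in back (3 without back mouse 3 or 4, 9 without cheek mouse 4) and 2 to 5 in cheek (2 without abdomen mouse 2 or 4, back mouse 1 or cheek mouse 1 or 3). In homeostasis it gave 1 to 4 calls for back and abdomen (1 without abdomen mouse 3), 2 to 5 for cheek and abdomen (5 without abdomen mouse 4) and 2 to 4 for cheek and back (2 without back mouse 1 or cheek mouse 3). In wounds it gave 0 to 1 for back and abdomen (1 without abdomen mouse 1 or 4 or cheek mouse 3), 3 to 8 for cheek and abdomen (3 without abdomen mouse 3) and 2 to 4 for cheek and back. It gave 0 to 1 members whose response differed between sites (1 without abdomen mouse 1) and 1 to 2 families called by wounding (2 without cheek mouse 4). Read depth is unknown, and 18 of 61 members were too low to test.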
